A study of Mus musculus with 60 samples.

Results

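The 10 genes described here encode UDP-glucuronosyltransferases of the mouse. Ugt1a1, Ugt1a6a and Ugt1a9 belong to the Ugt1a cluster, and Ugt2a3, Ugt2b1, Ugt2b5, Ugt2b34, Ugt2b35, Ugt2b36 and Ugt2b38 belong to the Ugt2 family. They were selected by symbol from the 23126 genes of an expression table of 60 hepatocyte libraries. All 10 were found, and all 10 had a mean above 1 ppm, the limit for entering the tests across genes.

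UDP-glucuronosyltransferases sit in the membrane of the endoplasmic reticulum and join glucuronic acid from UDP-glucuronic acid to bilirubin, bile acids, steroids, phenols and drugs, which makes these compounds soluble enough to leave in bile and urine. The liver is their main site, and this conjugation is a major branch of phase II drug metabolism. Genes of the Ugt1a cluster each have a first exon of their own, spliced to a set of exons that all members of the cluster share, whereas each Ugt2b gene has its own full set of exons.

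The study asked how nicotine taken by male mice affects the handling of toxic compounds in their offspring, and measured hepatocyte RNA to that end. All animals were C57BL/6J males of the F1 generation, 8 weeks old, of unmodified genotype, not exposed to nicotine themselves and anaesthetised before the liver was perfused; their fathers had drunk nicotine (NIC) or tartaric acid as the control (TA). In the time course, 5 TA animals (numbered 1 to 5) and 5 NIC animals (11 to 15) were sampled at 0, 1, 3 and 21 h of culture and in a further 21 h culture that the deposited table calls 21 h none, all with DMSO and dexamethasone, a synthetic glucocorticoid, by the labels. By the same labels the 5 NIC libraries at 21 h none come from 4 animals, 11 (in 2 libraries), 12, 13 and 15, and none from animal 14. Further animals gave 1 library each after 2 h of culture with DMSO, 2 per father with dexamethasone and 3 per father without it. The sources used here do not say what none means, and the labels give the same description to 21 h and 21 h none. Library titles carry 4 dates, which are called A (time course, 3 animals per father), B (time course, 2 per father), C (2 h with dexamethasone) and D (2 h without). What was done on those dates is not stated. The cells came from livers perfused with collagenase and were plated together with supporting cells, so that the libraries are not of hepatocytes alone. By the study's methods, plated cells attached to the well for 3 h and loose cells were removed before the time course began. The 0 h libraries are therefore not of freshly isolated cells.

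All values are in ppm, the deposited unit, in which every library adds up to the same total. On dates A, B and D this unit corrects for transcript length (TPM), so that different genes can be set side by side, and on date C it does not (CPM). Read totals are known for date C, at 1530794 to 2793007. In the other libraries the worth of 1 read was estimated from the step between low values, and for a transcript of 2000 bases it was 0.311 to 1.43 ppm at 0, 1 and 3 h. At 0 h, Ugt2b5 thus rested on about 1343 to 4271 reads per library and Ugt1a6a on about 23.6 to 84.8.

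A pair of libraries stood apart. Animals 14 and 15 (NIC) gave very shallow 21 h libraries, with 1 read for 2000 bases worth 9.69 and 13.6 ppm, and the summed level of 8 stellate cell and fibroblast markers was 1132 and 1901 ppm in them against 6.21 to 83.2 ppm in the 8 other 21 h libraries. Kupffer cell and macrophage markers summed to 1593 and 1523 ppm against 187 to 498 ppm, and the 10 hepatocyte markers to 105692 and 75509 ppm. Of the 10 UDP-glucuronosyltransferase genes, 6 were higher in each of these libraries than in all 8 other 21 h libraries, and 8 and 9 were at or above their lowest 0 h level. The share of all genes for which this holds was not counted, so these counts cannot be read as particular to the 10 genes. Results at 21 h are also given without this pair of libraries, an alternative chosen after the data were seen. The 21 h library of NIC animal 11 was shallow as well, with 1 read for 2000 bases worth 3.46 ppm. It remains among the 8 other 21 h libraries and is the third of the 3 shallow NIC 21 h libraries. The second 21 h none library of NIC animal 11 is of date B, although the other libraries of animal 11 are of date A, and the number in its title continues those of animal 14. In bulk RNA, fewer hepatocytes in a culture and less RNA per hepatocyte cannot be told apart.

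The 3 Ugt1a genes lie on chromosome 1 and end at the same base. In GENCODE M21 on GRCm38, Ugt1a9 spans chr1:88070800-88218997, Ugt1a6a chr1:88134809-88218997 and Ugt1a1 chr1:88211959-88218997, all on the plus strand. Their coding sequences share the last 737 bases, 45.9% to 46.5% of their length. The 60 bases around the end of each gene's own coding part are shown because they mark where the 3 mRNAs stop being distinguishable. Capitals are the gene's own exon and lower case is the shared part.
Ugt1a1: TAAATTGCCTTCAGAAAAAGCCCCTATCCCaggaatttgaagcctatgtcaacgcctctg
Ugt1a6a: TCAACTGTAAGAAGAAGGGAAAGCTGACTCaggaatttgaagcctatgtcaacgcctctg
Ugt1a9: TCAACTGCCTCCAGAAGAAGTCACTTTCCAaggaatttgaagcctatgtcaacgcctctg
The 30 lower-case bases are the same in all 3. Of all 50-base windows of the main transcript, 41.8% occurred in no other gene's transcripts for Ugt1a1 and 38.0% for Ugt1a9, and for Ugt1a6a none did, because all its windows also occur in transcripts annotated to Ugt1a7c. How the authors' counting dealt with reads from shared exons is not given in the sources used here, so the levels of the Ugt1a genes are uncertain to that extent.

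The 7 Ugt2 genes lie close together on chromosome 5, namely Ugt2b34 (chr5:86889767-86906937), Ugt2b1 (chr5:86916638-86926530), Ugt2b35 (chr5:87000860-87013275), Ugt2b36 (chr5:87065927-87092555), Ugt2b5 (chr5:87124960-87140318), Ugt2a3 (chr5:87324972-87337195) and Ugt2b38 (chr5:87409942-87424203). Only Ugt2b35 is on the plus strand. Coding sequences of Ugt2b5 and Ugt2b38 were 97.0% identical, those of Ugt2b5 and Ugt2b36 88.4%, and those of Ugt2b5 and Ugt2a3 65.7%. The stretch of 90 coding bases in which Ugt2b5 and Ugt2b38 differ most, bases 1422 to 1511 of 1590, is shown because these differences are what separates the reads of this pair. Capitals mark bases that differ from Ugt2b5.
Ugt2b5: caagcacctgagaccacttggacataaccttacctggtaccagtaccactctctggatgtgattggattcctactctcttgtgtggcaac
Ugt2b38: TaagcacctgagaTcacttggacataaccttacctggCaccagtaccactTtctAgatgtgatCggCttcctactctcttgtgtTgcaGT
Ugt2b36: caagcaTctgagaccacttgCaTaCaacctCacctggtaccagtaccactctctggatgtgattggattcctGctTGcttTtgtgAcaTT
Ugt2b38 differed from Ugt2b5 at 10 of these bases and at 47 over the whole coding sequence, and 34.8% of the 50-base windows of Ugt2b5 also occurred in Ugt2b38. Reads from such windows could have been split between both genes. The limit is not confined to this pair, since 58.3% of the windows of Ugt2b5 and 62.6% of those of Ugt2b38 occurred in no other gene's transcripts. Ugt2b37, a gene not among those described here, was 94.7% identical to Ugt2b5 in coding sequence. Ugt2b1, Ugt2b36, Ugt2b35, Ugt2b34 and Ugt2a3 were nearly free of this limit, with 100%, 99.7%, 99.3%, 97.9% and 95.5% of windows of their own.

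RefSeq promoter sequences (GRCm38.p6, 250 bases before and 50 after the start) were matched to all 10 genes. Since all 10 genes fell in culture, their promoters were searched on both strands for the 13-base motif of the liver factor HNF1 with up to 2 mismatches, and for GCGTG, the core of the dioxin receptor element. The HNF1 motif was found in 3 of the 10 promoters and in 1.58% of the promoters of 27025 genes. GCGTG was found in 0 of the 10 and in 35.2% of all promoters. A match is a description of letters only. The 3 promoters with the HNF1 motif are printed with the match in capitals.
Ugt1a1, chr1:88211709-88212008, plus strand: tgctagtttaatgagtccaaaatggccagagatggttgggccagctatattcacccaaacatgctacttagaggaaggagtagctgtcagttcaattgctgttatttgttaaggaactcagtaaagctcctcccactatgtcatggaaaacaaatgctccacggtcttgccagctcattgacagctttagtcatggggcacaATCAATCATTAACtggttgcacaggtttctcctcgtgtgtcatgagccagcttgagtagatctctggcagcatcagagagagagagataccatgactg
Ugt1a9, chr1:88070529-88070828, plus strand: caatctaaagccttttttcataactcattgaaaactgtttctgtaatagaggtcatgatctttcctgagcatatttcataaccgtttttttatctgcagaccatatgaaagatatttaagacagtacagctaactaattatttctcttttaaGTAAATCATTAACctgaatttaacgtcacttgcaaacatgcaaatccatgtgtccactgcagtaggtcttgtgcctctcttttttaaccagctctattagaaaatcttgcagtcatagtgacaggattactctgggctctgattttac
Ugt2a3, chr5:87337146-87337445, minus strand: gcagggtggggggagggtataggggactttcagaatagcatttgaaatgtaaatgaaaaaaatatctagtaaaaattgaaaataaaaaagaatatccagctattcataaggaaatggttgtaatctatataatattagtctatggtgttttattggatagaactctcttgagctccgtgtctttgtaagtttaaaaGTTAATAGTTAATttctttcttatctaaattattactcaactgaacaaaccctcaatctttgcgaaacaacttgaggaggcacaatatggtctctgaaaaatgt
The match began 48 bases before the start in Ugt1a1, 98 in Ugt1a9 and 54 in Ugt2a3. The promoters of Ugt2b5 and Ugt2b38 are printed as well because the genes are nearly identical in coding sequence and yet varied differently among animals. Capitals mark bases of Ugt2b38 that differ from the aligned base of Ugt2b5 or have no partner in its window, such as the closing bases, and bases that Ugt2b38 lacks are not marked.
Ugt2b5, chr5:87140291-87140590, minus strand: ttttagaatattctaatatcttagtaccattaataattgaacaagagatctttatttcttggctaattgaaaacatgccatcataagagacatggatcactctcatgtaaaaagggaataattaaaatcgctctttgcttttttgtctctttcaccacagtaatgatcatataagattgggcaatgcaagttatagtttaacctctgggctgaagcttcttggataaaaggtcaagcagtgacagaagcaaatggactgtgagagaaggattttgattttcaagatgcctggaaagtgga
Ugt2b38, chr5:87424154-87424453, minus strand: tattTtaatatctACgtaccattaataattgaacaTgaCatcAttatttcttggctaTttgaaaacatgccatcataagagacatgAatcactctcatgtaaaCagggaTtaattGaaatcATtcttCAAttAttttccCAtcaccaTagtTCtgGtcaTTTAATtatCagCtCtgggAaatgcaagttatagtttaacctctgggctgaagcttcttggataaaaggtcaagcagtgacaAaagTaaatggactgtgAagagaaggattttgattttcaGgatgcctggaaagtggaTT
The aligned pair was identical at 84.2% of positions, gaps included (261 bases).

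In hepatocytes at 0 h, Ugt2b5, Ugt2b1, Ugt2b36, Ugt2b34, Ugt2a3 and Ugt2b35 had higher mean levels than the 3 Ugt1a genes, and Ugt2b38 did not exceed Ugt1a1. At 0 h the 10 genes together made up 0.365% to 0.574% of a library. Ugt2b5 was the most abundant, with 1041 ppm in the lowest, 1691 ppm in the median and 2072 ppm in the highest of 10 libraries. Ugt2b1, whose rat counterpart conjugates morphine, followed at 814, 1023 and 1216 ppm, and Ugt2b36 at 552, 938 and 1076 ppm. Ugt2b34 (median 571 ppm), Ugt2a3 (492 ppm), whose human counterpart conjugates bile acids, and Ugt2b35 (193 ppm) took the middle of the order.

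The bilirubin-conjugating enzyme Ugt1a1 had 76.7, 108 and 155 ppm (lowest, median and highest) and Ugt2b38 60.8, 90.9 and 131 ppm. Ugt1a9, whose human counterpart conjugates bulky phenols such as propofol, was lower, with a median of 48.0 ppm, and Ugt1a6a, an enzyme of small planar phenols, was lowest with 26.1 ppm. Each gene was compared with the next in this order within each library. Ugt1a1 and Ugt2b38 did not differ beyond their spread (Ugt1a1 higher in 6 of 10 libraries, exact sign-flip p = 0.283, 2-sided), whereas in the other 8 steps the more abundant gene was higher in 7 to 10 of 10 libraries (exact p = 0.0234 for Ugt2b1 over Ugt2b36 and 0.00195 to 0.00391 for the rest, raw p of 9 steps). The widest step was that from Ugt2a3 to Ugt2b35, 2.55-fold, and their ranges did not overlap.

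None of the 10 genes passed the test at 1 h against 0 h or at 3 h against 1 h, counted from the end of attachment. Changes during attachment were not sampled. The summed level of the 10 genes was 4992 ± 778 ppm (SD, n = 10) at 0 h, 5073 ± 675 ppm at 1 h and 4526 ± 555 ppm at 3 h. With limma across 11135 genes, 0 of the 10 were called at an adjusted p under 0.05 at 1 h against 0 h, and 0 at 3 h against 1 h (background 0.00898% of genes higher and 0% lower at 1 h, 0% in both directions at 3 h), and 0 had an unadjusted p under 0.05 in either comparison. Over all genes, 404 had an unadjusted p under 0.05 at 1 h and 289 at 3 h. The differences of the 10 genes lay between -0.03 and 0.10 on the log2 scale at 1 h and between -0.30 and -0.07 at 3 h.

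By 21 h all 10 genes had fallen. Ugt2b35 was at 188, 216, 170, 151 and 135 ppm in TA animals 1 to 5 at 0 h and at 41.5, 59.3, 28.3, 25.6 and 50.8 ppm in the same animals at 21 h. In NIC animals 11 to 15 it went from 198, 223, 103, 252 and 235 ppm to 47.4, 52.5, 11.4, 156 and 162 ppm. The TA ranges did not overlap, and among NIC animals the 2 libraries that stood apart were the highest at 21 h. Ugt2b36 went from 1076, 921, 954, 552 and 794 ppm to 199.8, 257, 188, 175 and 329 ppm in TA animals 1 to 5. In NIC animals 11 to 15 it went from 881, 993, 643, 977 and 978 ppm to 228, 283, 79.5, 1357 and 1036 ppm. Animals 14 and 15 thus had more Ugt2b36 at 21 h than at 0 h, and the other 8 had less.

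**Figure D1:**
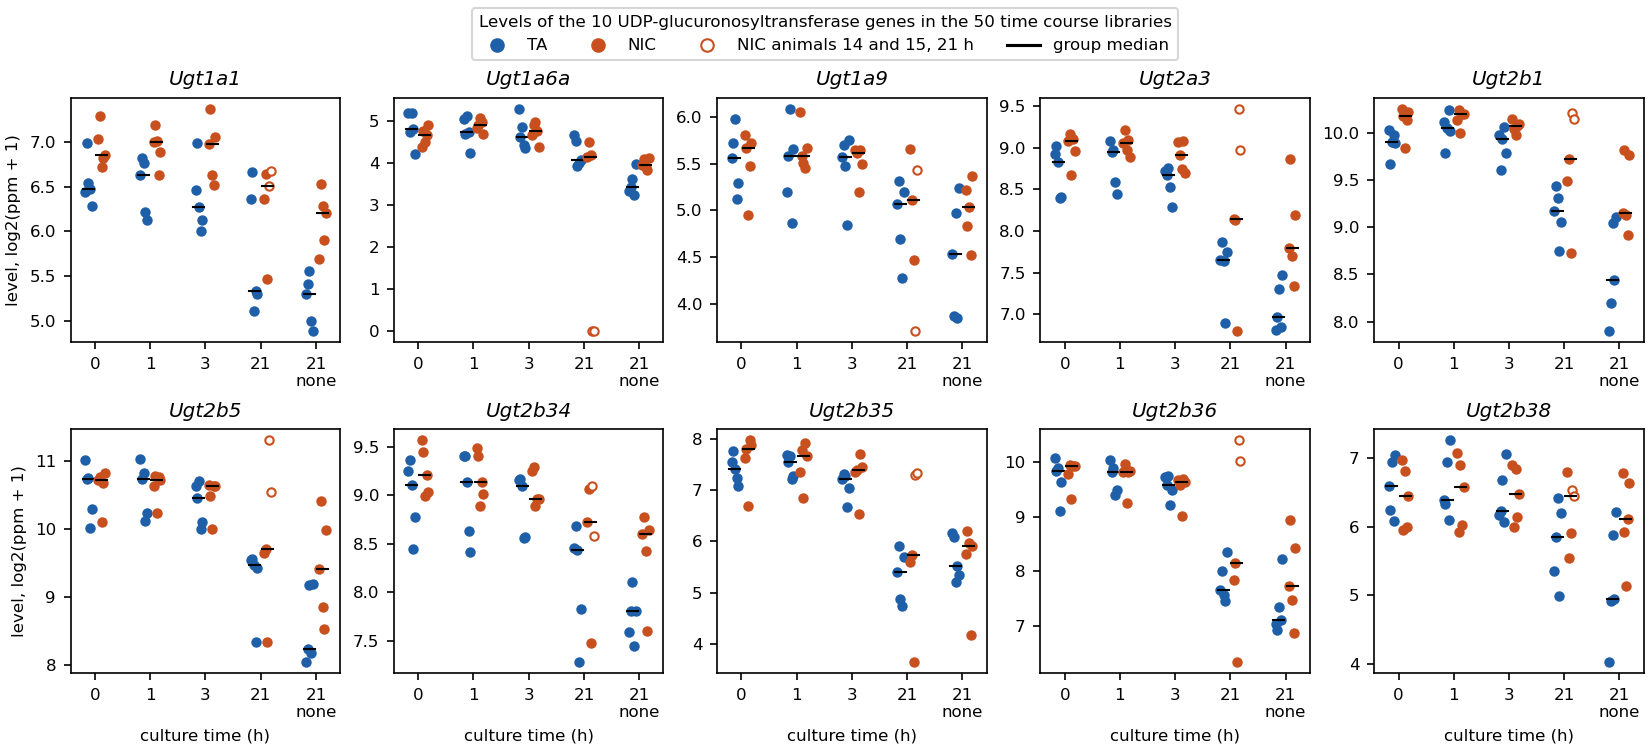
Levels of the 10 UDP-glucuronosyltransferase genes as log2(ppm + 1) against culture time in hours, with a scale of its own in each panel. Points are libraries of TA (blue) and NIC (orange) animals, bars are group medians, and hollow points are the NIC 21 h libraries of animals 14 and 15, which lie above the other 21 h points for Ugt2a3, Ugt2b1, Ugt2b5, Ugt2b35 and Ugt2b36 and at 0 for Ugt1a6a.

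In limma on log2(ppm + 1) with the animal as a random block, all 10 genes were lower at 21 h than at 0 h (adjusted p under 0.05 over 11135 genes), a direction called for 21.6% of all genes tested, with 29% called higher. The median of the 10 differences was -0.84 against 0.12 for all genes, and median ratio scaling brought the latter to -0.03. The fall was steepest for Ugt2b35, at -1.88 (standard error 0.23, adjusted p = 1.12e-09), and Ugt2b36, at -1.57 (0.23, adjusted p = 1.21e-07), followed by Ugt2b5 at -1.001, Ugt2a3 at -0.92, Ugt2b34 at -0.76, Ugt1a1 at -0.70, Ugt1a9 at -0.64 and Ugt2b1 at -0.61. The estimate nearest 0 was that of Ugt2b38, -0.50 (0.21, adjusted p = 0.0403), but without the NIC 21 h libraries of animals 14 and 15 those of Ugt1a6a (-0.49) and Ugt1a9 (-0.54) were nearer 0 than that of Ugt2b38 (-0.61). Its call was lost without TA animal 1 (-0.45, adjusted p = 0.0784), TA animal 4 (-0.47, 0.0845), NIC animal 12 (-0.48, 0.0580) or NIC animal 13 (-0.41, 0.144). Within animals, exact sign-flip tests gave p = 0.00195, the smallest that 10 animals allow, to 0.0215 (raw p of 10 tests), and 8 to 10 of 10 animals were lower at 21 h. By the same test, 18.6% of all genes were lower and 23.6% higher at an exact p under 0.05. Without the NIC 21 h libraries of animals 14 and 15 all 10 remained lower (background 22.4% of 10954 genes lower and 27% higher), with -2.29 for Ugt2b35, -2.07 for Ugt2b36, -1.31 for Ugt2b5 and -1.22 for Ugt2a3.

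Ugt1a6a is a case apart. Its difference of -1.33 (standard error 0.29) rests on the libraries of animals 14 and 15, which list it at 0 ppm, and 3 reads would be 25.3 and 35.5 ppm there, more than the 14.4 to 24.5 ppm of the 8 other 21 h libraries. Its absence in them was thus not detectable at their depth, and without them the difference was -0.49 (0.14, adjusted p = 0.00273). The shallow 21 h library of NIC animal 11, which stayed in that fit, held about 5.6 reads of Ugt1a6a.

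The genes differed in how much of their 0 h level was left at 21 h. In the 8 animals other than 14 and 15, the median animal kept 22.8% of Ugt2b35 (range 11.1% to 37.7%) and 26.9% of Ugt2b36 (12.4% to 41.4%). It kept 42.9% of Ugt2b5, 44.5% of Ugt2a3, 56.5% of Ugt1a1, 56.5% of Ugt2b34, 57.4% of Ugt2b1 and 62.4% of Ugt2b38. Ugt1a9 and Ugt1a6a, the least abundant of the 10, kept 70.6% and 81.3%. Of the summed level 46.7% was left, with 32.1% in the lowest and 53.2% in the highest of these animals. In TA animals the ranges at 21 h and 0 h did not overlap for 5 genes (7.1% of all genes were lower and 13.5% higher in this way), and in NIC animals for 1, Ugt1a1 (5.59% lower and 5.35% higher).

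**Figure D2:**
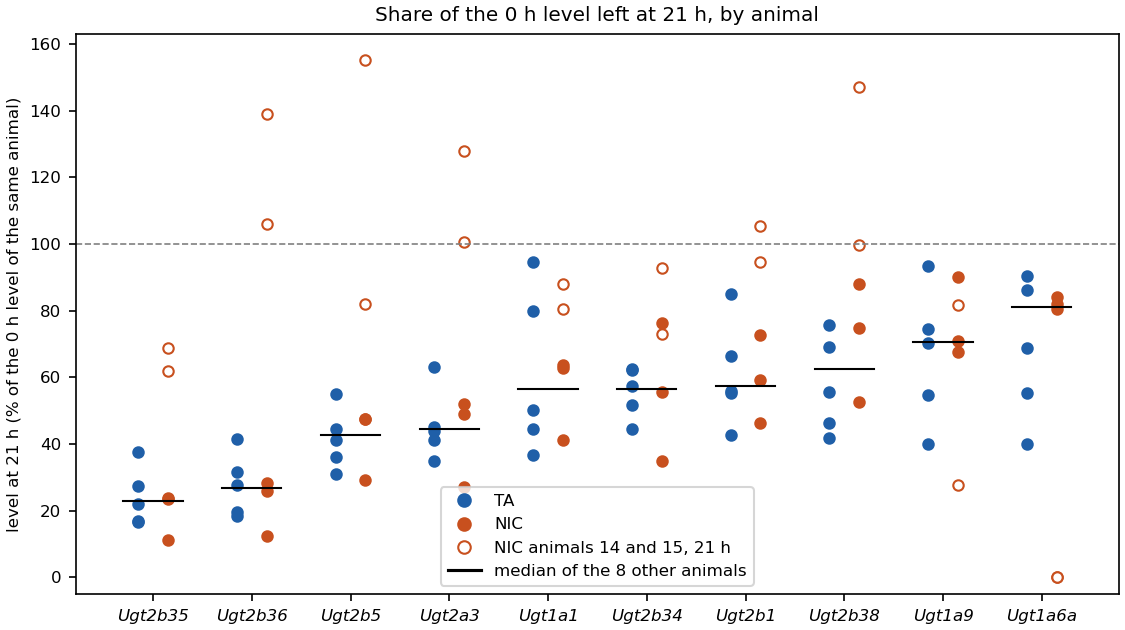
Level at 21 h as a percentage of the 0 h level of the same animal, for TA (blue) and NIC (orange) animals, with genes ordered by the median of the 8 animals other than 14 and 15 (bars) and the dashed line at 100%. Ugt2b35 and Ugt2b36 lie lowest, and the hollow points of NIC animals 14 and 15 reach 155% for Ugt2b5 and 139% for Ugt2b36.

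Other genes of glucuronidation were read from the same fit. Of 12 further Ugt genes, 11 were in the table and 5 had a mean above 1 ppm. At 21 h against 0 h, Ugt1a6b (-1.19), Ugt1a5 (-1.10), Ugt3a1 (-0.83) and Ugt3a2 (-0.44) were lower, all on the log2 scale, and Ugt2b37 did not pass (0.36, standard error 0.29, adjusted p = 0.307). Of 6 genes that supply UDP-glucuronic acid, 5 fell and 1 rose. Those that fell include Slc35d1, a carrier of UDP-glucuronic acid into the endoplasmic reticulum (-1.62), the nucleotide sugar carrier Slc35d2 (-1.90) and Ugdh, which makes UDP-glucuronic acid (-0.92). Pgm1, a phosphoglucomutase, rose by 1.58. Without the NIC 21 h libraries of animals 14 and 15, 3 of the 6 were lower and 1 higher.

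Of 10 genes of bilirubin metabolism and transport, 6 fell and 2 rose at 21 h. Abcc2, which exports conjugates into bile, fell by 1.46, Abcg2 by 1.15 and the uptake carriers Slco1a1 and Slco1b2 by 0.91 and 1.14 on the log2 scale, while Hmox1, the heme oxygenase that starts bilirubin formation, rose by 1.58. Of 16 regulators known to act on Ugt genes, 10 fell and 1 rose. Ppara (-1.95), Rxra (-1.73), the bile acid receptor Nr1h4 (-1.44) and Cebpa (-1.18) fell, and Nfe2l2, which encodes the stress factor Nrf2, rose by 1.11. Of 4 genes of glucuronic acid use, Gulo (-1.08), Rgn (-1.15) and Akr1a1 (-0.24), which lead to vitamin C in mice, fell. The deglucuronidating esterase Abhd10 rose by 0.80, and Gusb did not pass (-0.13). Of 9 hepatocyte markers tested, 7 were lower as well, and whether the fall of the 10 genes is separate from that of hepatocyte genes at large was not tested.

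The 21 h none cultures had still less Ugt2b1 and Ugt2b5. The summed level of the 10 genes was 2937 ± 1662 ppm (SD, n = 10) at 21 h and 2034 ± 920 ppm (SD, 10 libraries of 9 labelled animals) at 21 h none. By limma, the log2 difference was -0.46 for Ugt2b1 (standard error 0.12, adjusted p = 0.00709) and -0.58 for Ugt2b5 (0.20, adjusted p = 0.0260). These 2 of 10 stand beside 3.4% of all genes called lower and 23.1% called higher, and the median difference of all genes was 0.31 against -0.37 for the 10. With libraries scaled by the median ratio of their genes, the median of all genes became 0.05, the calls changed from 2570 higher and 379 lower to 767 higher and 699 lower, and 5 of the 10 genes were lower beside 6.38% of all genes. Without the NIC 21 h libraries of animals 14 and 15, Ugt2b1 (-0.32) and Ugt1a6a (-0.48, adjusted p = 0.00695) were lower and Ugt2b5 was not called (-0.29, adjusted p = 0.180; background 4.51% of 10954 genes lower and 32.7% higher). Without TA animal 1 or TA animal 2 neither Ugt2b1 (adjusted p = 0.0523 and 0.0527) nor Ugt2b5 (0.114 and 0.104) was called, and Ugt2b5 also missed the threshold without NIC animal 12 (0.0783) or 14 (0.0855). Without NIC animal 11, 4 genes were lower (Ugt2a3 and Ugt2b36 in addition), beside 3.03% of all genes. Without NIC animal 13, 6 were (Ugt1a1, Ugt2a3, Ugt2b34 and Ugt2b36 in addition), beside 3.37%. Of the genes around them, Ugp2 (0.73), Pgm2 (0.96), Ugdh (1.20) and Slc35d2 (0.87), 4 of the 6 that supply UDP-glucuronic acid, were higher at 21 h none than at 21 h.

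Between fathers, 9 of the 10 genes had a higher estimate in NIC offspring, and none passed the test over all libraries. In limma over all 60 libraries 0 of the 10 were called (background 0.135% of genes higher and 0.0629% lower). An unadjusted p under 0.05 was found for 5 of the 10, all higher in NIC, and for 1628 of 11135 genes, 367 of them higher. Without the NIC 21 h libraries of animals 14 and 15 the count of calls was again 0 (background 0.0639% of 10954 genes higher and 0.0183% lower). In that fit 3 of the 10 had an unadjusted p under 0.05, and the share of all genes that did is not given. The median of the 10 differences between NIC and TA was 0.25 on the log2 scale against -0.11 for all genes. Differences were 0.43 (standard error 0.12, 95% interval 0.20 to 0.66) for Ugt2a3, 0.42 (0.11, 0.21 to 0.64) for Ugt1a1 and 0.35 (0.09, 0.17 to 0.53) for Ugt2b1, with adjusted p = 0.101, 0.0860 and 0.0860. They were 0.30 for Ugt2b5, 0.26 for Ugt2b38, 0.24 for Ugt2b34 and for Ugt2b36, 0.20 for Ugt2b35, 0.13 for Ugt1a9 and -0.18 for Ugt1a6a. This fit used a correlation within animals of 0.0974 for every gene, where that of Ugt1a1 was 0.575, of Ugt2b34 0.553 and of Ugt2b35 0.518. The standard errors, intervals and p-values of such genes are therefore too small. On 1 mean per animal, the exact permutation p of Ugt1a1 was 0.170. The count depended on a NIC animal, since without NIC animal 13, low in Ugt2b5, Ugt2b35 and Ugt2b36, 6 genes were called higher (Ugt2a3 0.54, adjusted p = 0.00150, Ugt1a1 0.51, Ugt2b5 0.45, Ugt2b35 0.44, Ugt2b1 0.41 and Ugt2b34 0.38). The calls over all genes grew as well in that fit, to 1.83% higher and 5.2% lower of 11158 genes. Without TA animal 2 or NIC animal 16, Ugt1a1 was called (0.49 and 0.47, background 0.224% and 0.18% of genes higher), and without NIC animal 19 Ugt2b1 was (0.36, adjusted p = 0.0489, background 0.288% higher).

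NIC animal 13 also stood apart from the other NIC animals in other measures. Its libraries lay at 0.230, 0.303 and 0.475 at 0, 1 and 3 h on a line from the 0 h profile (0) to the 21 h profile (1) of the other animals, computed without any Ugt gene, where the other NIC animals lay at 0.042 or below and TA animals at -0.05 to 0.47. Its summed biliary cell markers were at 108, 99.9 and 177 ppm at these times against 9.22 to 34.1 ppm in the other NIC animals, and its Kupffer cell and macrophage markers at 237, 232 and 183 ppm against 49.4 to 152 ppm. TA animals reached 65.7, 67.4 and 161 ppm of biliary and 170, 172 and 139 ppm of Kupffer cell and macrophage markers at 0, 1 and 3 h. The part of these measures in the levels of the 10 genes in NIC animal 13 was not tested.

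Each library was also expressed as log2(ppm + 1) minus the midpoint of the NIC and TA means of its condition and date. Taking 1 mean of these centred values per animal left 10 animals per father, and fathers were permuted within dates. Ugt2a3 was higher in NIC animals by 0.35 (exact 2-sided permutation p = 0.00861) and Ugt2b1 by 0.32 (exact p = 0.00819). These are raw p of 10 tests, and by the same test 2.62% of all genes were higher and 6.76% lower at an exact p under 0.05. On the centred values, 7 NIC animals lay above every TA animal for Ugt2a3, and 5 did for Ugt2b1. These counts do not describe levels in ppm, and the share of all genes with as many was not counted. Within dates the difference in Ugt2a3 was 0.17 on date A, 1.12 on B, 0.05 on C and 0.30 on D, and that in Ugt2b1 was 0.26, 0.62, -0.02 and 0.46. Both were thus largest on date B, which holds 2 animals per father, among them NIC animals 14 and 15, and the second 21 h none library of NIC animal 11. That library entered the date B values as a further NIC animal, with the same weight as animals 14 and 15. Ugt2b5 differed by 1.18 on date B and by -0.13 on date A, and over all dates by 0.24 (exact p = 0.121). For the other 7 genes the exact p was 0.170 (Ugt1a1) to 0.441 (Ugt2b34). Without NIC animal 13, Ugt2b5 (0.33), Ugt2b35 (0.37) and Ugt2b36 (0.30) also had an exact p under 0.05, which made 5 genes beside 4.36% of all genes higher and 10.8% lower. Without NIC animal 16 Ugt1a1 (0.34) did (2.81% higher and 8.82% lower).

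Within culture conditions, the difference between fathers was called for a few genes at the late times. At 0, 1 and 3 h and in both sets of 2 h cultures, 0 of the 10 genes and 0% of all genes were called by limma, and 1 gene in 1 of these conditions had an unadjusted p under 0.05. This was Ugt1a1 at 3 h, at 63.3, 69.1, 76.1, 87.3 and 125 ppm in TA and 90.7, 98.0, 125, 132 and 164 ppm in NIC animals, a difference of 0.54 (95% interval 0.09 to 0.99, unadjusted p = 0.0235). At 3 h, 337 of 11135 genes had an unadjusted p under 0.05, 70 of them higher in NIC.

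At 21 h none, Ugt1a1 was at 38.5, 41.6, 46.1, 31.1 and 28.6 ppm in TA animals 1 to 5 and at 50.8, 76.9, 59.1, 91.0 and 72.7 ppm in the NIC libraries of animals 11, 12, 13, 11 (date B) and 15. The groups did not overlap (in this way NIC exceeded TA for 0.368% of all genes and TA exceeded NIC for 0.961%). Ugt2a3 was at 112, 124, 157, 114 and 176 ppm in TA and 222, 207, 161, 465.8 and 291 ppm in NIC libraries, and Ugt2b1 was at 238, 292, 525, 346 and 548 ppm against 568.1, 559.9, 482, 902 and 866 ppm. For both genes the lowest NIC library, that of animal 13, lay among the TA libraries, and the highest were those of date B.

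In limma, Ugt1a1 was higher in NIC by 0.89 (standard error 0.23, adjusted p = 0.0351), Ugt2a3 by 0.90 (0.25, adjusted p = 0.0404) and Ugt2b1 by 0.81 (0.19, adjusted p = 0.0198). These 3 of 10 genes stand beside 1.03% of all genes called higher and 2.34% called lower, with a median difference of -0.47 over all genes and 0.73 over the 10. The standard errors rest on 1 spread per gene shared by all 60 libraries, and that of Ugt2b1 was also 0.19 at 0 h. Ugt2b1 was at 390 ± 140 ppm in TA and 675 ± 193 ppm in NIC libraries at 21 h none (SD, n = 5 each). At 0 h it was at 953 ± 86.4 and 1121 ± 120 ppm. The p-values thus do not measure the spread of the 21 h none libraries alone. With median ratio scaling the median of all genes became -0.04 and the calls changed from 115 higher and 261 lower to 233 higher and 16 lower. Leaving out any one of TA animals 1, 2 and 4 or NIC animals 11 and 15 ended all 3 calls (adjusted p = 0.0893 to 0.257 for the 3 genes; 0.00898% to 0.134% of all genes were then called higher), and within date A the differences were 0.54, 0.58 and 0.69 with 0 calls among the 10 genes (background 0.0642% of 10900 genes higher and 0% lower). Without the NIC 21 h libraries of animals 14 and 15, Ugt2b5 (0.85) and Ugt2b34 (0.64) were called as well (background 2.5% of 10954 genes higher and 11.8% lower). Leaving out NIC animal 13 added the same genes, at 1.12 and 0.91 (background 2.72% higher and 12.3% lower). The count within this condition was 6 without TA animal 5 (2.99% of all genes higher and 12.7% lower), 5 without NIC animal 12 (1.59% and 10.2%) and 4 without TA animal 3 (1.48% and 4.26%).

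Other gene lists moved at 21 h none too. Of 9 hepatocyte markers tested, 3 were higher in NIC (Tat, which breaks down tyrosine, Apoa1 of high-density lipoprotein and Cps1 of the urea cycle), with a median of 0.36 over the 9. Of the 10 genes of bilirubin metabolism and transport, 2 were, the uptake carriers Slco1b2 (1.48) and Slco1a4 (1.75). Summed stellate cell and fibroblast markers lay at 19.3 to 208 ppm in NIC libraries, with 208 and 159 ppm in those of date B, and at 10.96 to 49.2 ppm in TA. The summed hepatocyte markers lay at 93652 to 149779 ppm in NIC and 67732 to 118625 ppm in TA libraries. The part of these differences in the calls of Ugt1a1, Ugt2a3 and Ugt2b1 was not tested.

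Libraries also differed in how far they had moved from their 0 h state. Each library was placed on the line from the mean 0 h profile (0) to the mean 21 h profile (1) of the other animals, over 11120 genes without any Ugt gene. TA 21 h none libraries lay at 0.947 to 1.47 and NIC ones at 0.624 to 1.24, with the date B libraries lowest of the NIC group at 0.636 and 0.624. The part of this place in the difference between fathers was not tested. The test of whether the 21 h against 0 h difference depends on the father called 0 of the 10 genes (background 0.018% higher and 0.18% lower) and gave 1 an unadjusted p under 0.05, Ugt1a6a, which the 21 h libraries of NIC animals 14 and 15 list at 0. In that test 1608 of 11135 genes had an unadjusted p under 0.05.

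**Figure D3:**
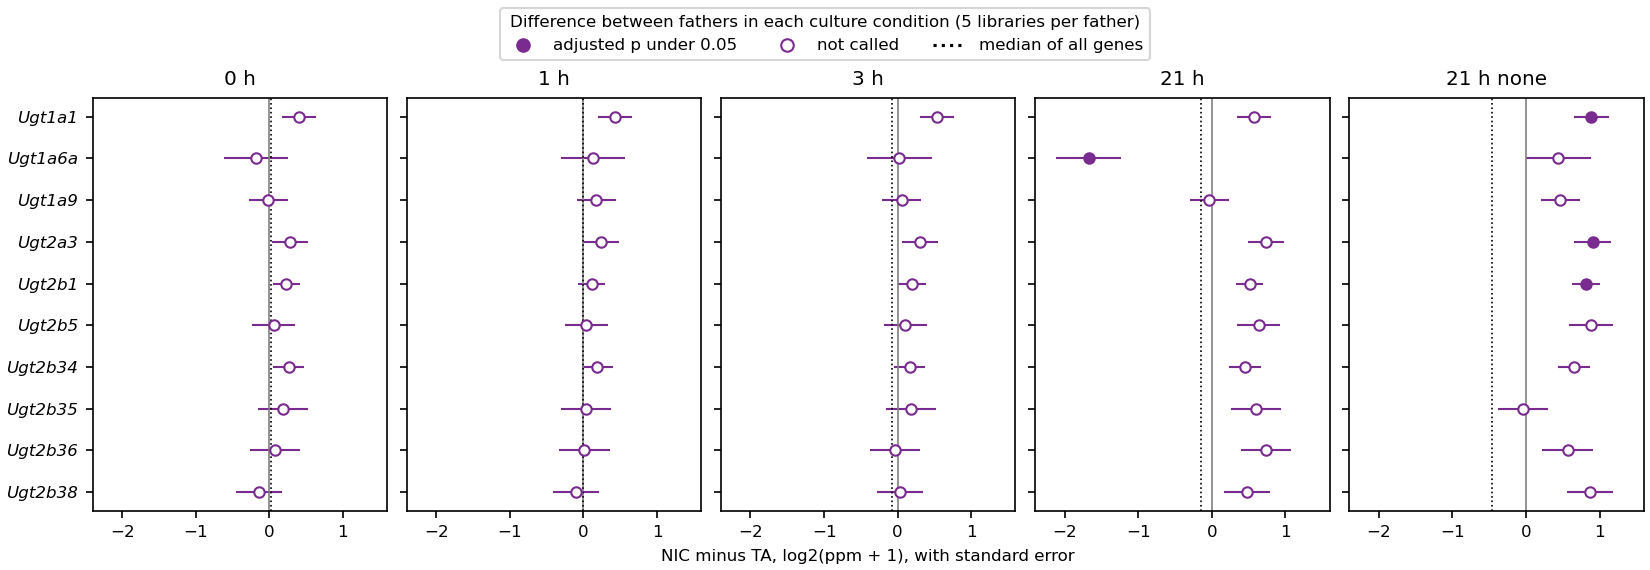
Difference between NIC and TA in log2(ppm + 1), with its standard error, for each gene in the 5 time course conditions with 5 libraries per father. Filled points have an adjusted p under 0.05, dotted lines are medians of all genes, and values at 21 h none lie between -0.04 (Ugt2b35) and 0.90 (Ugt2a3) while the dotted line there is at -0.47.

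At 21 h, Ugt1a6a was the gene called between fathers, lower in NIC by 1.68 (standard error 0.44, adjusted p = 0.0186), where 3.94% of all genes were called lower and 1.4% higher. Its levels were 24.5, 22.3, 14.4, 15.01 and 15.9 ppm in TA animals 1 to 5 and 16.8, 21.7, 17.4, 0 and 0 ppm in NIC animals 11 to 15. The 3 NIC libraries with a value lay within the TA range, and without animals 14 and 15 at 21 h the difference was 0.0044 (standard error 0.23). The other 9 genes did not pass at 21 h, with Ugt2a3 at 0.74 (adjusted p = 0.0622) and 0.14 without these libraries (background then 0.0183% of 10954 genes higher and 0.31% lower). The call of Ugt1a6a was also lost without TA animal 4 (adjusted p = 0.0671), NIC animal 14 (0.125) or NIC animal 15 (0.116). Without NIC animal 13, 7 genes were called higher in NIC at 21 h, from Ugt2b1 at 0.73 to Ugt2b36 at 1.27, in a fit that called 4.45% of all genes higher and 10.9% lower and in which 2 of the 4 NIC libraries are those of animals 14 and 15. Without TA animal 2, Ugt1a1 was (0.79, adjusted p = 0.0400, background 1.29% higher).

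Dexamethasone could not be compared with its absence, since the 2 h cultures with it carry another date and another unit. Ugt2b5 had 862 and 868 ppm in TA and 996 and 924 ppm in NIC cultures with dexamethasone, and 1172, 1195 and 1209.9 ppm in TA and 1339.6, 1150.2 and 1440.5 ppm in NIC cultures without it. Ugt1a1 had 168 and 99.2 ppm in TA and 88.2 and 196 ppm in NIC cultures with it, and 91.2, 117 and 93.8 ppm in TA and 81.3, 90.6 and 99.2 ppm in NIC cultures without it. Between fathers, the ranges did not overlap for 3 genes with dexamethasone (Ugt2b5, Ugt2b35 and Ugt2b36, all higher in NIC, as were 25.4% of all genes, while 11.1% were lower) and for 1 without it, Ugt2a3, at 376 to 493.2 ppm in NIC against 328 to 354 ppm in TA (3.22% of all genes higher and 6.18% lower). With dexamethasone the summed endothelial markers were also higher in NIC, at 470 and 617 ppm against 212 and 336 ppm, as were the stellate cell markers, at 114 and 107 ppm against 42.6 and 69.3 ppm, and their part in the result was not tested. With 2 or 3 animals per father, limma's intervals were wide, such as -0.76 to 1.06 for Ugt2b5 with dexamethasone and -0.33 to 0.93 for Ugt2a3 without it, and edgeR on the 2 h reads with dexamethasone gave 0 of the 10 genes an unadjusted p under 0.05 and called 0% of 8621 genes higher and 0.0116% lower. In edgeR, 655 of the 8621 genes had an unadjusted p under 0.05.

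Animals held distinct levels of several genes at 0, 1 and 3 h, most of all of Ugt2b38. In TA animals 1 to 5 the 0, 1 and 3 h libraries of an animal averaged 83.0, 76.2, 115, 66.7 and 139 ppm of Ugt2b38. In NIC animals 11 to 15 they averaged 126, 61.0, 114, 65.5 and 89.6 ppm. High and low animals occurred under both fathers. The 3 values were closest in TA animal 4, at 66.1 to 67.5 ppm, and NIC animal 12, at 59.7 to 62.6 ppm. The 3 libraries did not overlap in 39 of 45 pairs of animals, and 0.126% of all genes reached as many, against a median of 10 pairs. Ugt2b34 did so in 32 pairs (1.37% of genes) and Ugt1a1 in 30 (2.14%).

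The correlation of libraries within animals, after the terms for culture condition, date and father, was 0.617 for Ugt2b38, 0.575 for Ugt1a1, 0.553 for Ugt2b34 and 0.518 for Ugt2b35, and its median over all genes was 0.0836. It was -0.17 for Ugt1a6a. These are descriptions of libraries that share an animal and a culture series. The NIC 21 h none library listed under animal 11 with a title number of animal 14 had 59.6 ppm of Ugt2b38, where the other libraries of animal 11 had 110 to 134 ppm and those of animal 14 had 62.8 to 92.3 ppm.

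**Figure D4:**
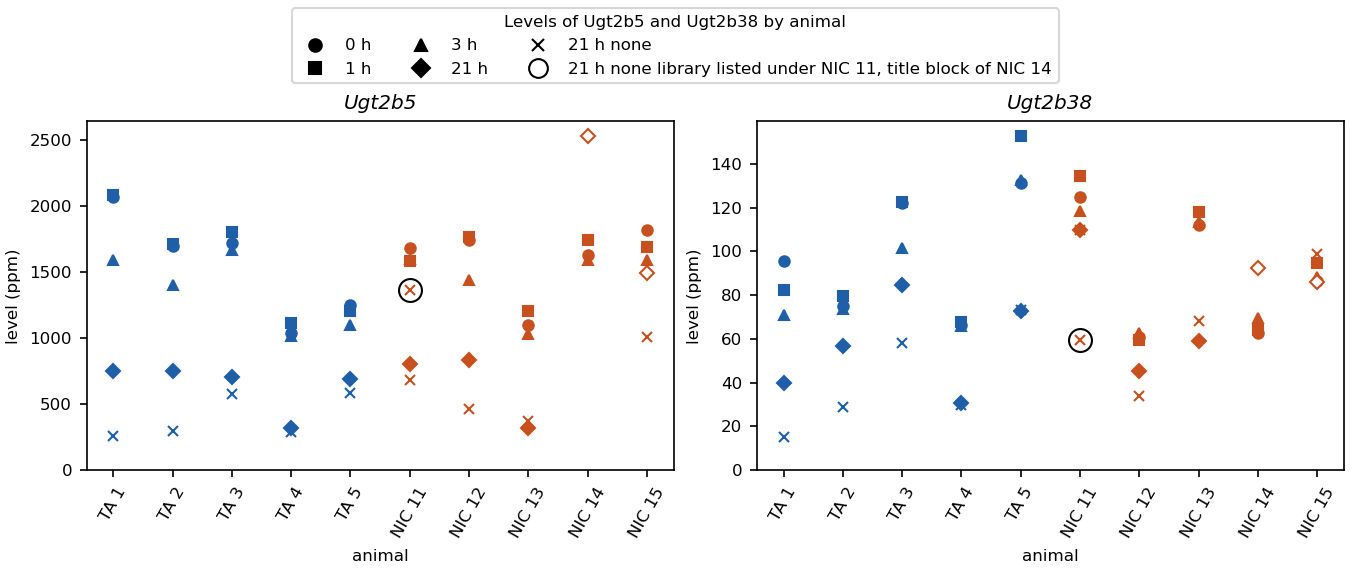
Levels in ppm of Ugt2b5 and Ugt2b38 in each time course animal, with a symbol per culture condition, TA in blue and NIC in orange, and hollow symbols for the NIC 21 h libraries of animals 14 and 15. For Ugt2b38 the 0, 1 and 3 h symbols of an animal lie close together, from 61.0 ppm on average in NIC animal 12 to 139 ppm in TA animal 5, and the circled library listed under NIC animal 11 lies at 59.6 ppm.

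The nearly identical Ugt2b5 and Ugt2b38 did not vary together among animals. Over the 30 libraries of 0, 1 and 3 h, with condition means removed, Pearson's r of log2(ppm + 1) was -0.18 between Ugt2b5 and Ugt2b38 and 0.94 between Ugt2b5 and Ugt2b36, the highest of all pairs of the 10 genes. These points share animals and libraries. TA animal 5, highest in Ugt2b38, had 1255, 1204 and 1099 ppm of Ugt2b5 at 0, 1 and 3 h, and TA animal 1, at 83.0 ppm of Ugt2b38, had 2072, 2089 and 1593 ppm. Ugt2b5 was lowest in TA animal 4 (1041, 1113 and 1021 ppm) and NIC animal 13 (1102, 1205 and 1031 ppm), and Ugt2b36 was lowest in the same animals, at 552 to 678 and 517 to 643 ppm.

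Over the 50 time course libraries, which share animals and the change with culture time, the gene outside the 10 with the highest Pearson's r was named for each. Ugt2b36 was most like Ces1f (r = 0.96), Ugt2b34 like Gys2 (0.95), Ugt2b1 like Mgst1 (0.95), Ugt2b5 like Gm4788 (0.95), Ugt2a3 like Tdo2 (0.93), Ugt2b35 like Pde3b (0.92), Ugt1a1 like Inmt (0.90), Ugt1a9 like Slc25a10 (0.88) and Ugt2b38 like C8a (0.84), each the highest of 11125 genes. None is given for Ugt1a6a, which 2 of these libraries list at 0.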

How the data were processed

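RNA of 60 hepatocyte cultures was sequenced by the authors, who by the submitters' processing notes used Bowtie2, DESeq2 and mm10; versions and counting of shared reads are not given in the sources used here. The deposited values, called ppm in 1 table, were treated as TPM made by the authors for 56 libraries and as CPM made by the authors for the 4 date C libraries, from which whole reads were recovered. No column lay outside the labelled samples (0). Columns were matched to samples by title.

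The 10 genes and all gene lists were chosen with earlier results of these data known. All 10 genes were named in every condition, and up to 4 genes of smallest p per list; genes named as the few that rose in a list were chosen after their values were seen. limma 3.58.1 (statmod 1.5.0, R 4.3.3) was run on log2(ppm + 1) for 11135 genes with a mean above 1 ppm, with culture condition, date and father as terms, the animal as a random block (consensus correlation 0.0974, and 0.108 with a term for each father and condition) and Benjamini-Hochberg adjustment over all genes tested (threshold 0.05). Each gene had 1 estimate of spread, shared by all culture conditions. A fold change on this scale understates that of low genes. Animal numbers pair libraries of the same animal across culture times, since the labels name the animal; fathers share no animals. Single genes were tested by exact permutation of centred animal means within dates and by exact sign flips over 10 animals. edgeR 4.0.16 was run on the recovered reads of date C. Scripts were tested on simulated data. Alternatives were other pseudocounts, filters, scaling, block, library sets, adjustment and leaving out each animal; leaving out the NIC 21 h libraries of animals 14 and 15, using date A alone and edgeR were chosen after seeing the data. Sequences came from RefSeq (GRCm38.p6) and GENCODE M21 (GRCm38), read with Python 3.11.15 and Biopython 1.88. The smallest value a library could resolve is given by its worth of 1 read, and such limits cover counting error only.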

Additional observations from a re-analysis of the deposited data

Results flagged for a closer look

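Of 100 groups of 5 libraries (10 genes, 5 conditions, 2 fathers), 6 had a library far from the other 4 by Dixon's test, and chance flags about 1 group in 20. NIC animal 13 accounted for 4 of these. It had 1102 ppm of Ugt2b5 at 0 h, where the other NIC animals had 1630.4 to 1822 ppm, and 1031 ppm at 3 h against 1439 to 1605 ppm. Its Ugt2b36 was at 609.8 ppm at 1 h against 901 to 1003 ppm and at 517 ppm at 3 h against 768 to 832 ppm. At these times it also had more biliary cell markers (99.9 to 177 ppm against 9.22 to 34.1 ppm in the other NIC animals) and lay further along the line from the 0 h to the 21 h profile (0.230 to 0.475 against 0.042 or below). TA animals reached 161 ppm and 0.471 in these measures, whose part was not tested.

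TA animal 4 had 323 ppm of Ugt2b5 at 21 h, below the 692 to 755 ppm of the other TA animals. TA animal 5 had 297 ppm of Ugt2b36 at 21 h none, above the 121 to 163 ppm of the others. The part of these animals in each comparison is given by the values without them.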

How the results depend on the processing

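The fall of all 10 genes at 21 h kept its direction and count except under Holm adjustment (5 genes, beside 7.42% of all genes lower) and without single animals (9 to 10). Between fathers over all libraries, 3 genes were higher with no replicate block (0.907% of all genes higher, against 0.135% with it), 1 with the time course alone (0.253%) and 1 with 0, 1 and 3 h alone (0.286%), and leaving out 1 animal gave 0 to 6 (6 beside 1.83%). Within conditions, where 0.348% of all tests over the 7 conditions were called higher and 0.898% lower, the 3 genes higher in NIC became 5 with log2(ppm + 10) (0.545% of all tests higher), 5 with a mean above 10 ppm (0.51%), 6 with median ratio scaling (0.561%), 6 without the 3 shallow NIC 21 h libraries (0.388%), 5 without those of animals 14 and 15 (0.36%), and 0 with date A alone (0.0147%) or Holm adjustment (0.0115%), and were 0 to 12 without 1 animal (12 without NIC animal 13, beside 1.02%). The 1 gene lower, Ugt1a6a at 21 h, became 0 under log2(ppm + 10), median ratio scaling, both exclusions of shallow libraries, date A alone and Holm adjustment (0 to 1 without 1 animal), and its difference turned to 0.058 without the 3 shallow libraries and 0.0044 without animals 14 and 15 at 21 h.

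At 21 h none against 21 h, the 2 genes lower (3.4% of all genes) became 1 with no filter (1.59%), 5 with a mean above 10 ppm (5.47%), 5 with median ratio scaling (6.38%), 1 with no replicate block (2.17%), 1 without the 3 shallow libraries (2.57%, where 1 was higher beside 22.6%), 5 with date A alone (5.19%) and 0 with Holm adjustment (0.0449%), and were 0 to 6 without 1 animal (6 beside 3.37%). Ugt1a6a turned from 0.34 to -0.50 without the 3 shallow libraries, -0.48 without animals 14 and 15 at 21 h and -0.65 with date A alone. On animal means, the 2 genes became 0 with the 2 h animals alone (2 to 5 without 1 animal). The 2 h sets hold only 2 and 3 animals per father, and the share of all genes was not counted for them. The cause of these shifts was not tested, apart from the listed zeros of Ugt1a6a. Of the single-gene values under other settings, 1492 were on the same side of the threshold in the same direction, 27 moved past it and 28 fell short of it. A further 78 changed sign without passing the threshold in either setting, and 5 changed sign where the main or the other setting passed it.

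Depth limits Ugt1a6a and Ugt1a9 in the shallow libraries, shared exons limit the Ugt1a genes and near-identity limits Ugt2b5 and Ugt2b38. With 5 animals per father in 2 dates, father and animal effects rest on few animals, and dexamethasone, date and unit cannot be told apart at 2 h.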
